A study of Mus musculus with 6 samples.

Results

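The Meis, Pbx and Pknox genes and Tgif1 encode transcription factors of the TALE class, homeodomain proteins named for extra residues in a loop of that domain. The 8 genes described here were Meis1, Meis2, Meis3, Pknox1, Pknox2, Pbx2, Pbx3 and Tgif1, out of 18193 genes measured. They were taken by name: every probe set whose only gene symbol in the platform's annotation was one of these was a member, which gave 19 of 34945 probe sets with a single symbol. Expression was compared between the mesenchyme and the urothelium of the bladder of wild-type mouse embryos of the FVB/N strain, of unknown sex, at E13 (Theiler stage 21). Bladders were cut off above the ureters and left in 20 µM EDTA for 20 minutes, and the epithelium was freed from the mesenchyme with a needle. Each compartment had 3 Affymetrix MOE430 arrays, labelled mesenchyme 1, 2 and 4 and urothelium 5, 7 and 8. The labels call the samples not pooled, but nothing says that each came from a different embryo. The p-values therefore reflect only how far these samples spread, which may be technical.

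Pbx proteins bind DNA together with Hox proteins and thereby sharpen which sites a Hox protein occupies. Meis and Pknox (also called Prep) proteins bind Pbx proteins through a shared domain at their amino terminus and help to keep them in the nucleus, and Meis proteins can also pair with Hox proteins of the posterior paralog groups. Tgif1 has a related homeodomain but acts mainly as a repressor that recruits corepressors to retinoid receptors and SMAD proteins. In the limb bud, Meis1 and Meis2 are known as retinoic acid-induced genes of the proximal region.

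The dissection separated the compartments. All 8 epithelial markers, among them Cdh1, Epcam and Trp63, passed the test towards urothelium with a median log2 difference of −6.35, and all 8 mesenchymal markers, among them Pdgfra, Col1a1 and Twist1, towards mesenchyme with a median of 4.91. Differences are mesenchyme minus urothelium on the log2(signal + 45) scale, which understates changes of dim probe sets. A gene passed when its limma p, adjusted by the Benjamini-Hochberg method over all genes, was under 0.05. The 3' probe set of beta-actin exceeded the 5' one by 8.40 times on mesenchyme 1 and 8.60 times on urothelium 5. Elsewhere this ratio was 2.29 to 4.89. The ratio of Gapdh was 26.3 on urothelium 5 but 11.5 on mesenchyme 1, within the 9.77 to 15.7 of the other arrays. Gapdh thus set only urothelium 5 apart. Values without mesenchyme 1 and urothelium 5 are given where a count changed or a member's difference moved by over 1.5 times. This pairing rests on beta-actin alone. Over all genes the median log2 difference was 0.11.

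Meis1 and Meis2 were the members that differed, and both were higher in mesenchyme. Pknox2 and Pbx3 were also higher on every mesenchyme array but did not pass the test, and Meis3, Pknox1, Pbx2 and Tgif1 did not pass it either. Thus 2 of 8 members were higher in mesenchyme and 0 in urothelium by limma's test. Over all genes 8.91% passed towards mesenchyme and 5.80% towards urothelium, 14.7% in all, or 1621 and 1055 genes. With arrays centred on their medians these were 1262 and 1358 genes, with 2 members again higher in mesenchyme. At an unadjusted p under 0.05 there were 4 members, all higher in mesenchyme, where 15.2% of all genes were higher in mesenchyme and 9.78% in urothelium. The median difference of the 8 members was 0.82.

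**Figure D1:**
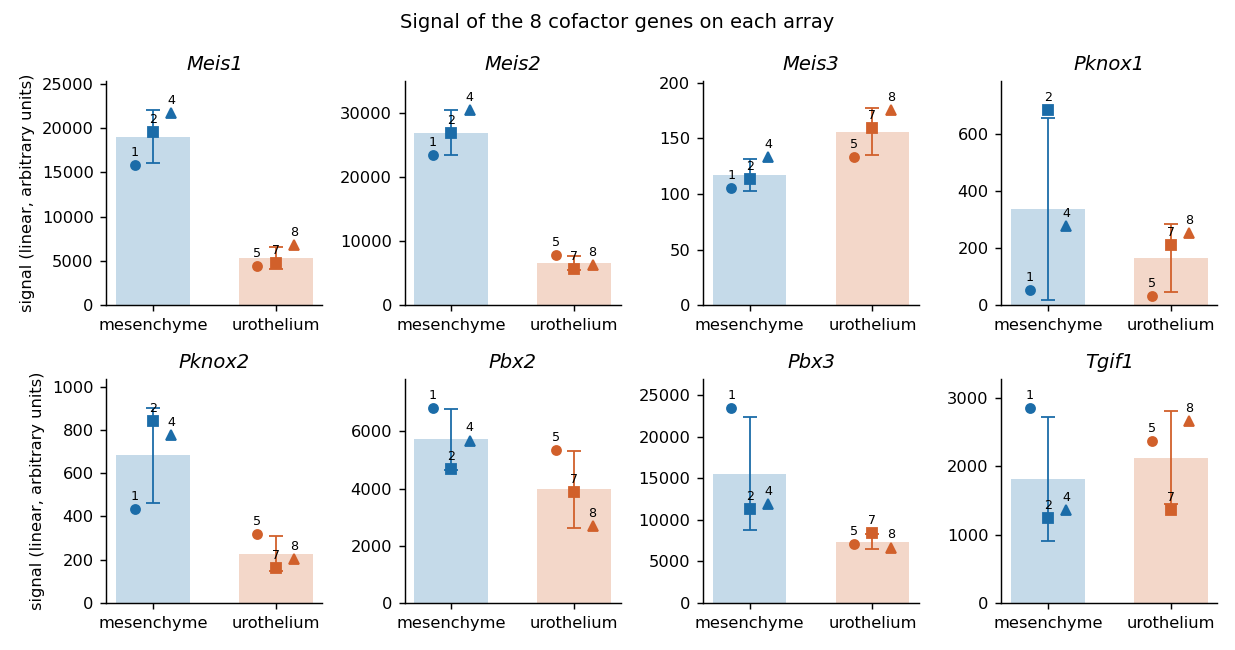
Signal of the probe set that stands for each of the 8 genes, on a linear scale in arbitrary units, for mesenchyme (blue) and urothelium (orange). Points are single arrays marked with their label number, bars are means and whiskers are the SD of 3 arrays; Meis1, Meis2, Pknox2 and Pbx3 have every mesenchyme array above every urothelium array.

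As both Meis1 and Meis2 were higher in mesenchyme, the RefSeq sequence just before their start sites is shown. Each stretch is 250 bases long and ends at the start site, is read along the gene's strand, and comes from build GRCm38.p6. Meis1 lies on the minus strand at chr11:19018970-19019219, and Meis2 on the minus strand at chr2:116064620-116064869. Capitals mark CG dinucleotides.
Meis1: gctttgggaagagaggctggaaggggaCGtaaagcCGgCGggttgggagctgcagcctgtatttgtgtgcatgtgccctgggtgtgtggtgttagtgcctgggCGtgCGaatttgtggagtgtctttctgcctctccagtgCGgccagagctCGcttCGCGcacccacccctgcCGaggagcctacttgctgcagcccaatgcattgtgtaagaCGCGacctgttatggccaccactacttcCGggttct
Meis2: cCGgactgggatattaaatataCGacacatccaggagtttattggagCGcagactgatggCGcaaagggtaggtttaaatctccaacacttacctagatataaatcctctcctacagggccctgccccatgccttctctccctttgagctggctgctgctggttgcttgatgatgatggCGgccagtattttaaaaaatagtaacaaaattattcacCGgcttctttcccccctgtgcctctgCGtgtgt

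The Meis1 stretch held 13 CG dinucleotides and the Meis2 stretch 7, against a median of 6 over 32536 such stretches of all genes, whose upper quartile was 16. Their G and C content was 59.6% and 47.6%, against a median of 52.4%. Neither stretch held TGACAG, the core bound by Meis, Pknox and Tgif proteins, TGATTG, a core bound by Pbx proteins, or TGATNNAT, the composite bound by Pbx and Hox proteins, on either strand. These letters were found in 15.8%, 12.7% and 7.66% of all stretches, and the motifs can overlap each other. Stretches were at hand for 5 of the 8 members, 9 stretches in all because Tgif1 had 5. Of these, 7 held none of the motifs, while 1 of Tgif1 held TGATTG and another TGATNNAT.

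Meis1, whose product binds Pbx and posterior Hox proteins, had signals of 15830, 19505 and 21715 on mesenchyme 1, 2 and 4 (probe set 1450992_a_at). On urothelium 5, 7 and 8 it had 4430.3, 4764 and 6808. The lowest mesenchyme array was thus well above the highest urothelium array. The means were 19017 ± 2973 (SD, n = 3) and 5334 ± 1287, a 3.57-fold ratio, and the log2 difference was 1.84 ± 0.27 (SE), with a limma adjusted p of 0.000762. Of all genes, 5.80% had a larger difference towards mesenchyme.

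Meis2, the paralog of Meis1, had signals of 23416, 26969 and 30480 in mesenchyme and of 7775, 5661 and 6320.1 in urothelium (probe set 1457632_s_at). Again the compartments did not overlap. The means of 26955 ± 3532 and 6586 ± 1082 (SD, n = 3) stood in a 4.09-fold ratio. The log2 difference was 2.03 ± 0.25 (SE), with a limma adjusted p of 0.000235. Whether the differences of Meis1 and Meis2 differ from each other was not tested. In bulk samples such as these, fewer cells that express a gene and less RNA per cell cannot be told apart.

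The probe sets of the Meis genes did not all behave alike. In a fit of every single-symbol probe set by itself, 4 of the 19 member probe sets passed towards mesenchyme and 0 towards urothelium, where 5.75% and 3.66% of all probe sets did, 9.41% in all. At an unadjusted p under 0.05 there were 7 member probe sets, all higher in mesenchyme, where 12.3% of all probe sets were higher in mesenchyme and 8.07% in urothelium. These 4 were the Meis1 probe set above and the 3 bright probe sets of Meis2, whose log2 differences were 2.03, 2.56 (1417129_a_at) and 2.41 (1447861_x_at). The fourth Meis2 probe set, 1440091_at, was dim, with signals from 122.2 to 394.5 in mesenchyme and from 9.30 to 192.3 in urothelium. Its difference of 1.12 ± 0.61 (SE) did not pass. On this array type the ending _a_at marks a probe set for several transcripts of a gene, _s_at one that matches more than 1 transcript, and _x_at one that can cross-hybridise.

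The other probe sets of Meis1 were also dim. Probe set 1443260_at had 807.1, 349.3 and 384.8 in mesenchyme and 22.7, 860.1 and 368.3 in urothelium, so that its compartments overlapped. Probe set 1459423_at had 331.8, 127.2 and 84.9 against 139.6, 131.3 and 103.8. Their log2 differences were 0.84 ± 0.83 and 0.27 ± 0.49 (SE), and without mesenchyme 1 and urothelium 5 they were −0.57 and −0.11. With the mean of its 3 probe sets in place of the brightest, Meis1 differed by 0.98 and did not pass (limma adjusted p = 0.130). Its adjusted p ranged from 6.15e-06 to 0.130 over the 16 alternatives.

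**Figure D2:**
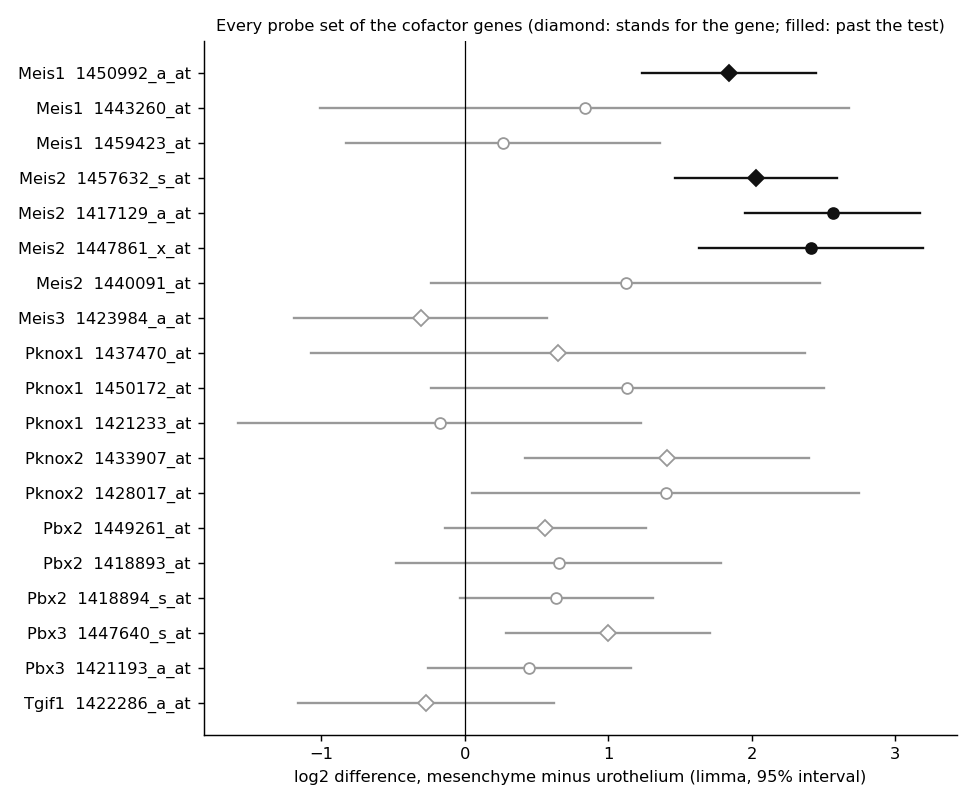
Log2 difference, mesenchyme minus urothelium, of all 19 probe sets of the 8 genes, with the 95% interval of limma's fit over all single-symbol probe sets. Diamonds mark the probe set that stands for a gene and filled symbols those past the test, which are 1 probe set of Meis1 and 3 of Meis2.

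Meis3, the third Meis paralog, was dim in both compartments. Its signals were 105.2, 113.7 and 133 in mesenchyme and 133.6, 158.8 and 175.2 in urothelium (1423984_a_at). All urothelium arrays were above all mesenchyme arrays, although the nearest pair was almost equal, and the log2 difference of −0.31 ± 0.37 (SE) did not pass (limma adjusted p = 0.691). Its 95% interval ran from −1.12 to 0.51.

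The Pknox genes encode the other partners that bind Pbx through the same domain as Meis. Pknox2 had 432.6, 839.1 and 775.8 in mesenchyme and 317.5, 160.9 and 204.2 in urothelium (1433907_at). All mesenchyme arrays were higher, with mesenchyme 1 and urothelium 5 nearest to each other. The mean signals were 682.5 ± 218.7 and 227.5 ± 80.9 (SD, n = 3). The log2 difference of 1.41 ± 0.44 (SE, 95% interval 0.44 to 2.37) did not pass, with a limma adjusted p of 0.0552. Without mesenchyme 1 and urothelium 5 it was 1.91 and passed (limma adjusted p = 0.0108), which raised the count of members higher in mesenchyme to 3 of 8, beside 9.51% of all genes (6.73% were higher in urothelium and 16.2% in either). It also passed without mesenchyme 1 alone (1.68), without the intensity trend, with array weights (1.85) and when its probe sets were averaged (1.40). The second Pknox2 probe set, 1428017_at, differed by 1.40 ± 0.61 and overlapped between compartments, with 491.8, 124.6 and 53.5 against 49.1, 57.1 and 5.83. Without mesenchyme 1 and urothelium 5 it moved the other way, to 0.84, and did not pass (limma adjusted p = 0.346). In that fit of single probe sets 1433907_at passed (limma adjusted p = 0.0238).

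Pknox1 was dim and uneven. Probe set 1437470_at, its brightest, had 51.9, 684.3 and 277.5 in mesenchyme and 31.9, 211.3 and 254.4 in urothelium. Mesenchyme 1 and urothelium 5 were far below the other arrays of their compartments. The log2 difference was 0.65 ± 0.74 (SE, 95% interval −0.99 to 2.29; limma adjusted p = 0.673), and without mesenchyme 2 it was −0.032. The other probe sets of Pknox1 differed by 1.13 (1450172_at) and −0.17 (1421233_at), neither past the test. Without mesenchyme 1 and urothelium 5 they differed by 0.44 and 0.27. Of the 19 member probe sets 5 were lowest on both of these arrays within their compartments, or 26.3%, among them 2 of Pknox1. Of all single-symbol probe sets 20.5% were. The part of RNA quality in these values was not tested.

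Pbx3, one of the Hox-binding partners, had 23485, 11357 and 11895 in mesenchyme and 7076, 8369.6 and 6672 in urothelium (1447640_s_at). All mesenchyme arrays were higher, and mesenchyme 1 had the highest signal of all. The mean signals of 15579 ± 6852 and 7373 ± 887 (SD, n = 3) stood in a 2.11-fold ratio. The log2 difference was 1.00 ± 0.31 (SE, 95% interval 0.30 to 1.69), with a limma adjusted p of 0.0594, just outside the threshold. Without mesenchyme 1 it was 0.66, and without mesenchyme 1 and urothelium 5 it was 0.63 (limma adjusted p = 0.0890). It passed after quantile normalization (1.04), among genes at or above the median signal (1.00), where fewer genes were tested, and with array weights (0.62). Its other probe set, 1421193_a_at, had 2007.6, 2393 and 1733 against 1065, 1858 and 1605, and differed by 0.45 ± 0.32. Without mesenchyme 1 and urothelium 5 that probe set differed by 0.23.

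Pbx2 overlapped between compartments in its brightest probe set, 1449261_at. This probe set had 6823, 4687 and 5684 in mesenchyme and 5364, 3874 and 2687 in urothelium. The means were 5731.5 ± 1069 and 3975 ± 1341 (SD, n = 3). The log2 difference was 0.56 ± 0.31 (SE, 95% interval −0.13 to 1.25; limma adjusted p = 0.311). The other probe sets gave 0.65 (1418893_at) and 0.64 (1418894_s_at), so that the 3 estimates of Pbx2 lay close together and none passed. Probe set 1418894_s_at did not overlap between compartments, with 1465, 1845 and 1335 in mesenchyme against 955.4, 914.9 and 1041 in urothelium.

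Tgif1, the repressor among the members, had 2856, 1238 and 1354 in mesenchyme and 2371, 1358 and 2661 in urothelium (1422286_a_at). The arrays of the compartments were mixed, with the highest and the lowest signal both in mesenchyme. The log2 difference was −0.27 ± 0.40 (SE), with a 95% interval from −1.15 to 0.61 (limma adjusted p = 0.752). Without mesenchyme 1 it was −0.64, without mesenchyme 1 and urothelium 5 it was −0.54, and it did not pass in any of the 16 alternatives.

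In all, 5 of the 8 members had no overlap between compartments, 4 with mesenchyme higher and Meis3 with urothelium higher. Over all genes 30.1% had no overlap, and 18.1% had all mesenchyme arrays higher. The signals summed over the 8 genes ran from 65394 to 73000.2 on the mesenchyme arrays and from 24558 to 27500 on the urothelium arrays. Bright probe sets make up most of these sums. The mesenchyme means were 19017 for Meis1, 26955 for Meis2 and 15579 for Pbx3, but 682.5 for Pknox2. The sums therefore say little about the dim members.

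**Figure D3:**
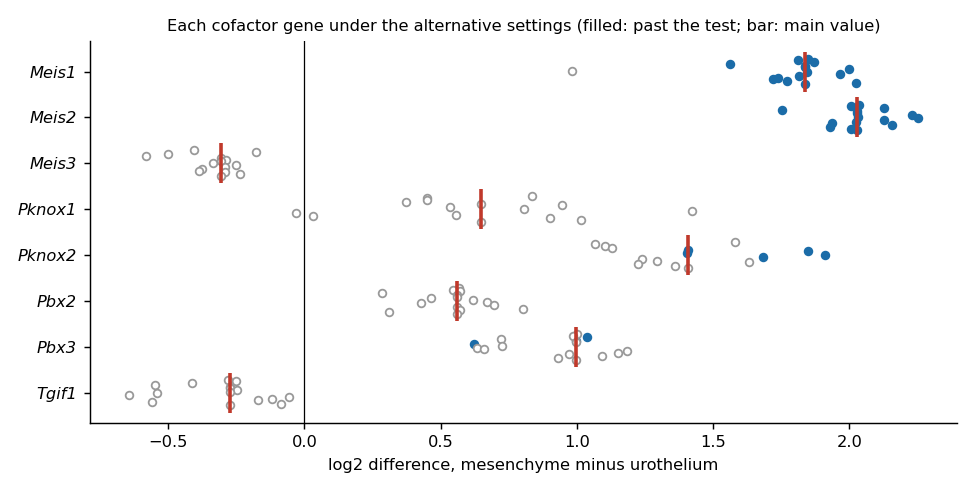
Log2 difference, mesenchyme minus urothelium, of each gene under the alternative settings (points, filled where the gene passed the test) and in the reported fit (red bar). Meis2 passed in all 16 settings and Meis1 in all but the mean of its probe sets, while Pbx2 and Tgif1 passed in none of 16 and Meis3 and Pknox1 in none of the 15 that gave them a value.

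Meis1 and Meis2 still had signal in the urothelium. The urothelium mean of Meis1 was 28.1% of its mesenchyme mean, with single arrays at 23.3% to 35.8%, and that of Meis2 was 24.4%, with arrays at 21.0% to 28.8%. The 8 mesenchymal markers kept a median of 3.49%, from 1.12% for Cdh11 to 7.26% for Col3a1. For both genes the share on every urothelium array was thus above that of any mesenchymal marker. The markers were picked as typical of mesenchyme, so this mostly restates their larger differences. Shares themselves were not ranked over all genes. By log2 difference, however, only 5.80% of all genes lay further towards mesenchyme than Meis1, and 4.96% further than Meis2. The shares of Meis1 and Meis2 are thus high only beside such markers. The share was 33.3% for Pknox2, 47.3% for Pbx3, 49.1% for Pknox1 and 69.4% for Pbx2. Shares compare a probe set only with itself, and background signal raises them for dim probe sets.

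**Figure D4:**
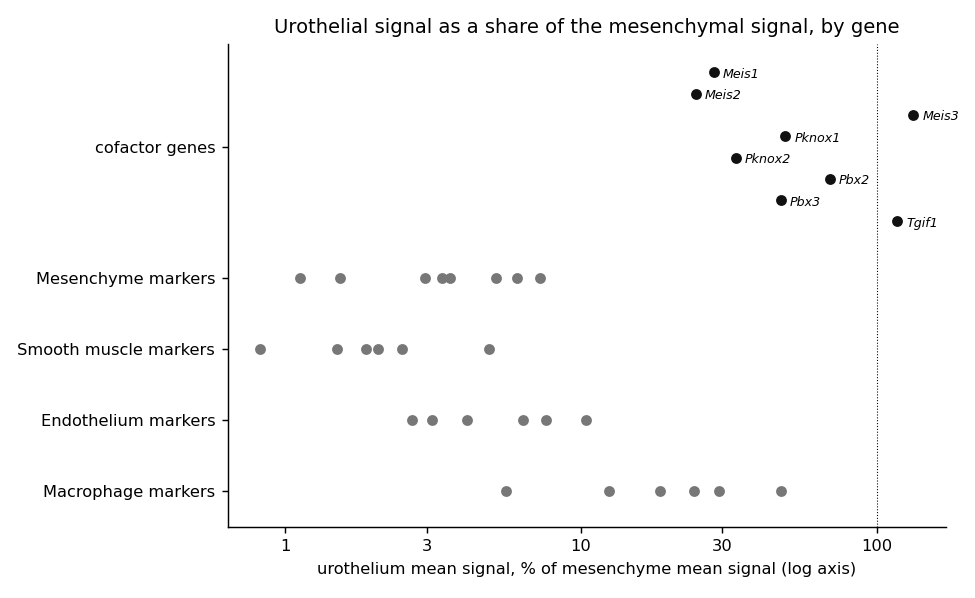
Urothelium mean signal as a percentage of mesenchyme mean signal, on a log axis, with a point for each gene; the dotted line is 100%. Meis1 and Meis2 lie at 28.1% and 24.4%, to the right of all 8 mesenchymal, all 6 smooth muscle and all 6 endothelial markers and within the range of the 6 macrophage markers.

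Markers of smooth muscle and endothelium were higher in mesenchyme, as Meis1 and Meis2 were, while those of other cell types were so in part or not at all. All 6 smooth muscle markers were higher in mesenchyme, with summed signals of 70254 to 96496 against 3031 to 3376, and so were all 6 endothelial markers, with 11421 to 15179 against 520.1 to 702.2. Of 6 macrophage markers 3 were higher in mesenchyme (sums 9486 to 13415 against 1275 to 1506). All 6 were higher there at an unadjusted p under 0.05, and 4 passed without mesenchyme 1 and urothelium 5. Their part in the Meis differences was not tested. The smooth muscle markers kept a median of 1.97% of their mesenchyme signal in urothelium, the endothelial ones 5.22% and the macrophage ones 21.4%. Of 5 measured neural crest, glial and neuronal markers 0 were higher in mesenchyme by limma's test (3 at an unadjusted p under 0.05, and 1 past the test without mesenchyme 1 and urothelium 5) and 1 in urothelium, and their sums overlapped (6944 to 13382 against 7542 to 9843). Of 4 mesothelial markers 2 were higher in mesenchyme and 1 in urothelium, of 4 red cell markers 2 and 0, and of 4 hindgut markers 0 and 2, with no further member of these lists at an unadjusted p under 0.05. Without mesenchyme 1 and urothelium 5 the red cell count was 0. No signal on these arrays was exactly 0, the lowest being 0.09.

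Among 9 other measured TALE genes, 1 passed towards mesenchyme and 0 towards urothelium by limma's test, with a median difference of −0.0094. The gene higher in mesenchyme was Mkx, the Mohawk homeobox gene known for its role in tendon, with 515.4, 522.7 and 375.3 in mesenchyme and 58.6, 81.9 and 74.4 in urothelium. Its log2 difference was 2.14 (limma adjusted p = 0.00324). Tgif2, the paralog of Tgif1, had 3236, 6410.4 and 6933 against 3559, 4751 and 5767, and its difference of 0.19 did not pass (limma adjusted p = 0.809). Pbx4 was dim in both compartments (58.3 ± 40.5 and 84.7 ± 59.3, SD, n = 3) and differed by −0.29. The Iroquois genes Irx1 to Irx6 lay between −1.29 (Irx2) and 0.81 (Irx3), and none passed. Irx2 was the 1 gene of the list towards urothelium at an unadjusted p under 0.05, and without mesenchyme 1 and urothelium 5 it passed (−2.09, limma adjusted p = 0.0204).

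The Hox genes, whose products bind DNA with these cofactors, moved in both directions. Over all genes, 8.91% were higher in mesenchyme and 5.80% in urothelium, or 15.2% and 9.78% at an unadjusted p under 0.05. Of 19 measured genes of paralog groups 1 to 8, 2 were higher in mesenchyme and 5 in urothelium (median −0.47), or 2 and 8 at an unadjusted p under 0.05. Hoxd1 (−4.76) and Hoxb5 (−2.15) were higher in urothelium and Hoxc4 (1.94) in mesenchyme. Of 14 measured genes of groups 9 to 13, which include the posterior Hox partners of Meis, 1 was higher in mesenchyme and 2 in urothelium (median 0.21), or 4 and 3 at an unadjusted p under 0.05. These were Hoxc10 (2.06) in mesenchyme and Hoxb13 (−6.65) and Hoxa9 (−1.64) in urothelium. The limma adjusted p of these 6 genes lay between 4.18e-06 for Hoxb13 and 0.0198 for Hoxc4.

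Corepressors and other proteins that bind Pbx, Meis or Tgif1 showed no differences past the test: of 9 measured, 0 were higher in either compartment by limma, and 1 was higher in urothelium at an unadjusted p under 0.05. Ctbp1, a corepressor that Tgif1 recruits, had 41221 ± 4838 in mesenchyme and 36349 ± 1367 in urothelium (SD, n = 3), a log2 difference of 0.18. Smad3, a Tgif1-bound mediator of TGF-beta signals, had 13246 ± 2573 and 16079 ± 1870, a difference of −0.29. The median of the list was 0.18. Without mesenchyme 1 and urothelium 5 the count was also 0.

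Retinoic acid genes, the pathway that induces Meis genes in other tissues, passed towards mesenchyme for 4 of 14 measured members and towards urothelium for 1 (median 0.27), or 5 and 3 at an unadjusted p under 0.05. Without mesenchyme 1 and urothelium 5 these were 4 and 2, the second in urothelium being the enzyme gene Aldh1a1 (−1.98, against −1.55 in all arrays), named after its value was seen. The enzyme genes Rdh10 (3.40) and Aldh1a2 (3.34) and the binding protein gene Crabp2 (1.90) differed most. The fourth, named after its value was seen, was the receptor gene Rarb. It had 7604 ± 2049 and 3792 ± 719 (SD, n = 3) and a difference of 0.98 (limma adjusted p = 0.0470). The member higher in urothelium, also named after its value was seen, was the receptor gene Rxra (−1.28). Beside these counts, 8.91% of all genes passed towards mesenchyme and 5.80% towards urothelium. At an unadjusted p under 0.05 these shares were 15.2% and 9.78%. Whether retinoic acid plays a part in the differences of Meis1 and Meis2 was not tested.

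Of 8 genes described as Meis or Pbx targets in other tissues, 4 were higher in mesenchyme and 0 in urothelium by limma's test (median 1.19). Of all genes 8.91% and 5.80% were. The list was chosen with earlier results of these data known, and whether Meis or Pbx proteins act on these genes here was not tested. Epas1, the hypoxia-inducible factor gene regulated by Meis1 in blood stem cells and also strong in endothelium, had 20261 ± 7125 and 1043 ± 82 (SD, n = 3), a log2 difference of 4.16. Pf4, the platelet factor gene, had 2244 ± 928 and 279 ± 156 and differed by 2.84. Trib2, a Meis1 target in leukaemia, had 3030 ± 663 and 589 ± 34 and differed by 2.26. The fourth, named after its value was seen, was the ephrin receptor gene Epha8 (1.89). Limma gave the 4 genes an adjusted p from 1.05e-05 (Epas1) to 0.0104 (Epha8). Endothelial and macrophage markers were higher in the same compartment, as given above, and their part in these differences was not tested. Hif1a, the other hypoxia factor of the list, differed by −0.71 and did not pass (limma adjusted p = 0.186), although it was the 1 member towards urothelium at an unadjusted p under 0.05.

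**Figure D5:**
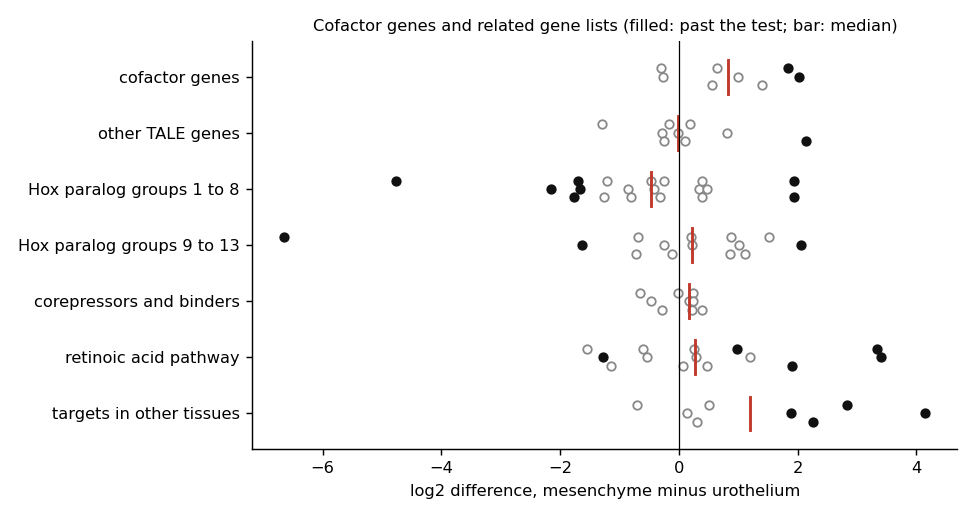
Log2 difference, mesenchyme minus urothelium, of the 8 cofactor genes and of the measured members of 6 related lists; each point is a gene, filled where it passed the test, and the red bar is the list's median. The medians run from −0.47 for Hox paralog groups 1 to 8 to 1.19 for targets in other tissues, with the cofactor genes at 0.82.

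The genes most like Meis1 and Meis2 across the 6 arrays were sought among 8897 other genes at or above the median signal. For Meis1 these were Pdzd2 (Pearson's r = 0.999), the elastin gene Eln (0.997) and the collagen IV chain gene Col4a2 (0.997). For Meis2 they were the sialyltransferase gene St3gal5 (0.999), Ssbp2 (0.997) and Hdgfl3 (0.997). Their log2 differences ranged from 1.57 for Ssbp2 to 3.70 for Col4a2. With 2 compartments of 3 arrays, any gene that separates them evenly has a high r, and the arrays share their scaling.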

How the data were processed

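Each probe set has 1 deposited value per array, a linear intensity. GCOS, the Affymetrix software, is named in the submitters' processing notes, while its algorithm is not given in the sources used here. Per the labels' protocols, RNeasy-purified RNA went through 2 rounds of amplification before biotin labelling. Arrays had a common 2% trimmed mean of 1500 and were not scaled again, which hides differences in total RNA. Of 45101 probe sets, 64 controls, 932 with several symbols and 9160 with none were left out. A gene was represented by its brightest probe set (mean log2 signal of the 6 arrays). Log2(signal + 45), 45 being the 25th percentile of all values, was fitted in R 4.3.3 by limma 3.58.1, using lmFit and trended eBayes, with compartment as the factor and Benjamini-Hochberg adjustment over 18193 genes, and again over 34945 probe sets. The number of arrays limits the precision. No detection calls were used.

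The text names the 8 members, the other TALE genes, from each other list the up to 3 past the test that differed most (or the 2 brightest where none passed), and the 3 genes most correlated with each member past it. Hif1a, Pbx4 and the marker examples are named beside them. The members and lists were chosen with earlier results of these data known. Alternatives were other pseudocounts (1 and 179), quantile normalization, median centring, a filter on dim genes, no trend, array weights, the mean of probe sets, single probe sets, and leaving out arrays. The fit was also run on simulated data, and the recovery required there was lowered after a run fell short. These data had independent noise and no array-wide effects, so they do not test the fit under such effects. Motifs were searched on both strands of RefSeq promoter sequences.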

Additional observations from a re-analysis of the deposited data

How the results depend on the processing

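No paired analysis was possible because mesenchyme and urothelium arrays share no replicate number. Of 125 single-gene values under the alternatives, 115 kept their direction and their side of the threshold. The exceptions were Meis1 in the mean of its probe sets (0.98, past the test before and not after), 3 values of Pbx3 and 5 of Pknox2 that passed only under an alternative, as given above, and Pknox1, which ranged from −0.032 without mesenchyme 2 to 1.42 without mesenchyme 1. Among single probe sets, without mesenchyme 1 and urothelium 5 the sign turned for 1443260_at (−0.57) and 1459423_at (−0.11) of Meis1 and 1421233_at of Pknox1 (0.27). The filter on dim genes gave no value for Meis3, Pknox1 and Pknox2.

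The count of members higher in mesenchyme was 4 with array weights and 2 to 3 when 1 array was left out; the count in urothelium was 0 whenever 1 array was left out. Array weights gave 2996 genes in all higher in mesenchyme and 2055 in urothelium, against 1621 and 1055. With only genes at or above the median signal, 999 were higher in mesenchyme. When 1 array was left out the counts were 1138 to 1678 and 660 to 1059, the lowest in urothelium without urothelium 7. With every probe set by itself the shares were 5.75% and 3.66%, against 8.91% and 5.80%. The median log2 difference of all genes was 0.11, −0.00087 after quantile normalization and −0.17 after median centring, and Meis1 was 1.56 under the last. The cause of these changes was not tested. Dim signals limit what can be said of Meis3, Pknox1 and Pknox2.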
